A study of Mus musculus with 33 samples.

Results

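Ccnd1, Trib2, Gadd45a, Zfyve28 and L3mbtl1 are 5 of the 21565 genes in a table of frontal cortex (FC) expression in mice that slept or were kept awake. They were chosen by their rescaled expression values and by the fold changes made from them, because they differed between control sleep (CS) and sleep deprivation (SD) in Mef2c f/f mice, where they are the 5 genes that pass the thresholds in a limma fit (other settings pass from 0 genes, with no filter on low values, to 590, with CS replicate 1 left out), so what they do in that comparison is described here and not tested. The other mice of the study played no part in the choice, and the tests below come from them. RNA from bulk FC of 33 adult male mice on a C57BL/6J background was sequenced, 1 library per mouse.

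The wild-type (WT, C57BL/6J) mice comprised 6 that slept ad libitum (CS), 7 kept awake on a slow treadmill for 6 hr (SD) and 7 that had 2 hr of recovery sleep (RS) after 4 hr awake. The Mef2c f/f mice, 4 in CS and 3 in SD, carry loxP sites around an exon of Mef2c that codes for part of its DNA-binding region, and their line was backcrossed to the WT background. The Mef2c-cKO mice, 3 in CS and 3 in SD, carry the same floxed alleles and a Camk2a-promoter Cre transgene. The transgene acts mainly in forebrain excitatory neurons, so other cells keep the exon. Cre in the male germ line, however, left some offspring with 1 allele recombined in all tissues. Among the Mef2c-cKO CS samples, the paper describes 1 without such recombination and 2 with it, and the labels do not tell them apart. All mice were put in constant darkness before the experiment and killed at ZT6, so the groups of a genotype differ in their recent sleep and in what the treadmill entailed.

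MEF2C is a transcription factor of the MADS-box family that is abundant in cortical excitatory neurons and controls genes of synapses. The 5 genes belong to no single pathway. Ccnd1 encodes cyclin D1, which with CDK4 or CDK6 phosphorylates the retinoblastoma protein at the G1 to S transition and is also made by cells that are not dividing. Trib2 encodes a Tribbles pseudokinase, a scaffold that brings C/EBP transcription factors to the ubiquitin ligase COP1. Gadd45a encodes a small stress-inducible protein that p53 can induce. Zfyve28 encodes a FYVE-domain protein of endosomes, also called LST2, that limits EGF receptor signalling. L3mbtl1 encodes a chromatin protein whose MBT domains bind methylated lysines of histones, among them lysine 20 of histone H4, and compact chromatin.

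In GENCODE M21 on GRCm38, the assembly called mm10 in the submitters' processing notes, Ccnd1 lies on chromosome 7 from 144929931 to 144939925 on the minus strand and Trib2 on chromosome 12 from 15791727 to 15816922 on the minus strand. Gadd45a lies on chromosome 6 from 67035096 to 67037457 on the minus strand, Zfyve28 on chromosome 5 from 34194893 to 34288449 on the minus strand and L3mbtl1 on chromosome 2 from 162943472 to 162974522 on the plus strand. All 5 are protein coding. Ccnd1 overlaps LTO1, a gene on the opposite strand that is in the table under its older symbol Oraov1, by 1771 bases. Gadd45a and Zfyve28 overlap noncoding genes on the opposite strand that have no row in the table. The libraries were stranded, but the strand setting of the read counting is not given in the sources used here, so reads of these overlaps may be shared.

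RefSeq promoter sequences (GRCm38.p6) were matched for 4 of the 5 genes, Trib2 and Gadd45a, which rose in deprived Mef2c f/f mice, and Zfyve28 and L3mbtl1, which fell. They are shown to set the start sites of the rising and falling genes side by side. Each line gives bases upstream of the GENCODE gene, read 5′ to 3′ along the gene's own strand, with capitals for letters that match a searched motif on either strand. The matches in the Trib2 window lie outside the stretch shown.
Trib2, chr12:15816923-15817035, minus strand: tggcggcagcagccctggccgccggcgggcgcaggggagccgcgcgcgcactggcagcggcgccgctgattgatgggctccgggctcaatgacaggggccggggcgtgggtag
Gadd45a, chr6:67037458-67037657, minus strand: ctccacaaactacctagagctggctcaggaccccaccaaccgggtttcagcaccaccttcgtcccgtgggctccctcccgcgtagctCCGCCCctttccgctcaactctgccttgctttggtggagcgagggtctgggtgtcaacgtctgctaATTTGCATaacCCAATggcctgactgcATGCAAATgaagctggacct
Zfyve28, chr5:34288450-34288574, minus strand: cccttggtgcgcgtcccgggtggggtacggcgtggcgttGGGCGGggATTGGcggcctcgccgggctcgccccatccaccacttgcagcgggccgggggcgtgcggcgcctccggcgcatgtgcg
L3mbtl1, chr2:162943215-162943464, plus strand: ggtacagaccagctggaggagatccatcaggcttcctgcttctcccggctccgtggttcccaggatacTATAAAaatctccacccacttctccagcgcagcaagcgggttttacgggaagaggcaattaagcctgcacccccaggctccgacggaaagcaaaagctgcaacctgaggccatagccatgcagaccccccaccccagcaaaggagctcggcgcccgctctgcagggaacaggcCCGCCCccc

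Motifs were searched on both strands in the 250 bases upstream of the RefSeq start site, of which the lines above hold the part outside the GENCODE gene. The window of Gadd45a held the octamer ATGCAAAT at 97 to 90 and at 70 to 63 bases upstream, once on each strand, with a CCAAT box between them at 86 to 82. The octamer was in 1.62% of 32536 windows of that length, and the CCAAT box in 33.8%. All 4 windows held the GC box GGGCGG, which 32.97% of windows hold, and the L3mbtl1 window also held TATAAA, as 12.3% do. None of the 4 held a MEF2 response element, a CArG box, the CRE TGACGTCA or its core TGACG, the AP-1 site TGANTCA or the E-box CACGTG in these windows, which are present in 2.89%, 1.48%, 1.56%, 17.9%, 6.73% and 6.04% of windows. The windows of Zfyve28 and Trib2 were rich in G and C, at 76.8% and 73.6%, those of L3mbtl1 and Gadd45a less so, at 61.2% and 59.2%, and the median window held 52.4%.

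Between 18935045 and 249046089 reads underlie each library, fewest in a Mef2c f/f CS mouse and most in a WT RS mouse. The genes of the table account for all of that total in Mef2c f/f and Mef2c-cKO libraries but for 92.6% to 98.6% of it in WT libraries. The deposited CPM of the lines thus rest on unlike totals. Levels are given as rescaled CPM, the deposited CPM (read counts scaled to a common library total) divided by a factor that aligns the median gene of each library. The factors were taken over all 33 libraries together, which removes the difference in totals. Any other difference between the lines in their mice or libraries remains in levels set beside each other. The tissue label was borne out by its markers: all 8 excitatory neuron, 8 inhibitory neuron, 8 astrocyte and 8 oligodendrocyte markers were at 1 CPM or more in each of the 33 libraries. Mef2c, the targeted gene, was at 957 to 1727 rescaled CPM in Mef2c-cKO mice and at 1080 to 1406 in Mef2c f/f mice; the deletion removes an exon, so the gene's total does not check it. In WT, Mef2c itself fell from CS to SD by 0.80 on the log2 scale (SE 0.13, limma adjusted p = 0.00109), where 20.5% of genes tested passed the thresholds downward. No alternative was run for Mef2c. In Mef2c f/f mice it was at 1080 to 1207 rescaled CPM in CS and at 1135 to 1406 in SD, with no fall. In bulk tissue, fewer cells of a type and less RNA per cell cannot be told apart.

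In Mef2c f/f mice, Ccnd1, Trib2 and Gadd45a were higher after SD and Zfyve28 and L3mbtl1 lower, and none of the 5 had overlapping groups. Ccnd1 was at 23.2, 22.9, 23.7 and 24.3 rescaled CPM in the 4 CS mice and at 37.2, 39.5 and 35.2 in the 3 SD mice. Trib2 was at 31.0, 34.0, 27.1 and 29.1 rescaled CPM in CS and at 57.6, 49.6 and 48.0 in SD. Gadd45a was at 2.80, 2.61, 2.90 and 3.48 rescaled CPM in CS and at 6.64, 6.43 and 5.95 in SD. For these 3 genes the highest CS mouse lay well under the lowest SD mouse.

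Zfyve28 was at 133.6, 157, 156 and 158 rescaled CPM in the CS mice and at 87.8, 91.1 and 92.8 in the SD mice. L3mbtl1 was at 22.3, 23.2, 23.1 and 22.5 rescaled CPM in CS and at 14.1, 15.3 and 15.1 in SD. The CS mice of L3mbtl1 and Ccnd1 were tightly grouped, with an SD of 0.419 around 22.8 and of 0.610 around 23.6 rescaled CPM. A small spread and a large change both helped these genes to be chosen, so the spreads and fold changes here are only described. Fitted log2 fold changes were 0.65 ± 0.08 (SE) for Ccnd1, 0.76 ± 0.10 for Trib2, 0.99 ± 0.13 for Gadd45a, -0.73 ± 0.08 for Zfyve28 and -0.60 ± 0.08 for L3mbtl1, with 4 CS and 3 SD mice. Gadd45a rested on 68 to 116 reads per CS library and 237 to 336 per SD library, the other 4 on 440 or more.

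The fit that chose them calls 5 of 12410 genes, or 0.0403%, while groups that do not overlap are found for 17.4% of genes; neither is evidence about the 5, which were taken for it. Trib2 was just inside the adjusted p threshold of 0.05, at a log2 fold change of 0.76. Just outside were 8 genes that shared the next adjusted p. Among them were Cldn11, a tight-junction protein of myelin, and Dio2, the enzyme that makes active thyroid hormone in the brain. Their log2 fold changes were 0.63 ± 0.09 (SE) and 0.61 ± 0.08. These 2 genes were named after their values were seen. The number past the thresholds in this comparison went from 0 to 590 when 1 library was left out. Of 11 marker lists, 4 also separated these groups. Oligodendrocyte markers summed to 1954 to 2320.0 rescaled CPM in the CS mice and 2619.5 to 2997 in the SD mice, and oligodendrocyte precursor markers to 124 to 140.1 and 153 to 161. Astrocyte markers were at 4346 to 4744 and 4749.6 to 5055, and red blood cell markers at 123 to 183 and 56.4 to 105. Their part in the values of the 5 genes was not tested.

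In WT mice, Ccnd1 rose with SD and stayed up in RS. The 6 CS mice ran from 19.7 to 24.4 rescaled CPM with a median of 22.6, the 7 SD mice from 30.9 to 43.1 with a median of 34.1, and the 7 RS mice from 27.4 to 41.3 with a median of 29.8. Neither the SD nor the RS mice overlapped the CS mice, a separation that 4.68% of genes showed upward after SD and 1.7% in RS. The group means were 22.4 ± 1.91 (SD, n = 6), 35.1 ± 3.85 (n = 7) and 32.7 ± 5.82 (n = 7). From CS to SD the log2 fold change was 0.64 ± 0.09 (SE, limma adjusted p = 0.000441), or 1.56-fold, with a 95% interval of 1.37 to 1.77. From CS to RS it was 0.52 ± 0.11 (adjusted p = 0.0329), or 1.44-fold, with an interval of 1.22 to 1.69. These 2 comparisons share the CS mice. From SD to RS the log2 difference was -0.12, with an interval of -0.33 to 0.10 (adjusted p = 0.986).

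Differences this common in WT have to be read against the background: 45.1% of 12913 genes tested were DEGs (adjusted p at or under 0.05 and a log2 fold change of at least 0.3) from CS to SD, 24.6% upward and 20.5% downward. Ranked by p from CS to SD, Ccnd1 stood at 71 of those 12913 genes, Trib2 at 3257, Gadd45a at 7034, L3mbtl1 at 8697 and Zfyve28 at 8869. From CS to RS, 17.5% of 12752 genes were DEGs, 9.28% upward, and Ccnd1 stood at 104. With 2 of the 5 genes passing after SD and 1 in RS, the share of the 5 that changed was near that of all genes.

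The Ccnd1 call from CS to SD was made under each alternative tried. The call from CS to RS was not made without CS replicate 2 or 3 or without RS replicate 3, 4, 5, 6 or 12, where the log2 fold change was 0.46 to 0.55 and the adjusted p 0.0502 to 0.0749. Meningeal fibroblast markers, a list of 8 genes made up of collagens, transporters, matrix genes and Igf2, were also higher in SD than in CS in WT. They summed to 11.3 to 51.8 rescaled CPM in CS, 61.5 to 101 in SD and 19.3 to 63.1 in RS. SD replicate 2 was highest for both Ccnd1, at 43.1 rescaled CPM, and this list. Within RS, replicate 6 was highest for both, at 41.3 and 63.1, but replicate 4 was lowest for the list, at 19.3, with Ccnd1 at 33.2. Only 3 of the 8 genes were at 1 CPM or more in all libraries, no gene of the list was at 0 in all of them, and the part of these cells in the Ccnd1 difference was not tested. Oligodendrocyte precursor markers summed to 147 to 175 in CS, 170.3 to 207 in SD and 163 to 213 in RS. Against CS, 4 of these 7 genes rose and 1 fell in SD (median log2 difference 0.41), and 3 rose in RS (median 0.34). Of all genes, 24.6% rose and 20.5% fell in SD, and 9.28% rose in RS. The part of these precursor markers in the Ccnd1 difference was not tested. Red blood cell markers summed to 28.2 to 118 in CS, 97.9 to 285 in SD and 85.3 to 139 in RS, and their part was not tested either.

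Trib2 also rose from CS to SD in WT. The CS mice ran from 32.3 to 43.8 rescaled CPM with a median of 35.8, the SD mice from 41.3 to 51.9 with a median of 47.0, and the RS mice from 35.6 to 45.0 with a median of 37.6. The CS and SD mice overlapped through CS replicate 5, at 43.8. The log2 fold change from CS to SD was 0.31 ± 0.09 (SE, limma adjusted p = 0.0118), or 1.24-fold with a 95% interval of 1.09 to 1.42. From CS to RS it was 0.07 ± 0.09 (adjusted p = 0.537), with an interval of -0.12 to 0.26. From SD to RS Trib2 was at -0.25 ± 0.07 (adjusted p = 0.362), 84 of 12921 by p in a comparison where 0.0232% of genes were DEGs.

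The rise of Trib2 in WT was close to the limit of 0.3 and depended on which libraries were used. Among WT libraries with at least 97% of their total on listed genes, a choice made after seeing the data that keeps 2 CS, 6 SD and 4 RS libraries, its log2 fold change was 0.14 (adjusted p = 0.358), and it fell just under 0.3 when CS replicate 1, 2 or 4 or SD replicate 2 was left out. In the 4 CS libraries under 97% Trib2 was at 32.3 to 37.9 rescaled CPM, and in the 2 others at 41.0 and 43.8.

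Gadd45a was low and did not pass the test in WT. It ran from 2.39 to 4.84 rescaled CPM in CS with a median of 2.67, from 3.40 to 6.56 in SD with a median of 3.86, and from 2.67 to 4.96 in RS with a median of 2.89, on 149 to 735 reads per library. The log2 fold change from CS to SD was 0.43 ± 0.18 (SE, limma adjusted p = 0.0609), and from CS to RS it was 0.08 ± 0.19 (adjusted p = 0.76). CS replicates 5 and 6, at 4.84 and 4.36, and RS replicates 5 and 6, at 4.83 and 4.96, lay apart from the rest of their groups, which ran from 2.39 to 2.84 and from 2.67 to 3.07. Without CS replicate 5 the CS to SD difference was 0.54 (adjusted p = 0.0194) and without CS replicate 6 it was 0.51 (adjusted p = 0.0305). Among libraries with at least 97% on listed genes, which include these 4, it was -0.11 (adjusted p = 0.752), and on CPM as deposited, where the median gene was at 0.30, it was 0.66 (adjusted p = 0.0121).

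Zfyve28 and L3mbtl1, the falling genes of Mef2c f/f mice, were lower on average in WT after SD but did not pass. Zfyve28 ran from 87.9 to 169.6 rescaled CPM in CS with a median of 136, from 75.3 to 147 in SD with a median of 106, and from 97.4 to 135 in RS with a median of 113, so that the 3 groups overlapped widely. Its log2 fold change was -0.30 ± 0.18 (SE, limma adjusted p = 0.163) from CS to SD, with a 95% interval of -0.68 to 0.08, and -0.13 ± 0.14 (adjusted p = 0.487) from CS to RS. L3mbtl1 ran from 10.05 to 17.2 rescaled CPM in CS with a median of 14.5, from 8.74 to 14.0 in SD with a median of 12.01, and from 10.2 to 13.4 in RS with a median of 11.9. Its log2 fold change was -0.26 ± 0.15 (SE, adjusted p = 0.147) from CS to SD, with an interval of -0.57 to 0.05, and -0.21 ± 0.12 (adjusted p = 0.176) from CS to RS. Both intervals from CS to SD include 0. On CPM as deposited Zfyve28 was at -0.02 and L3mbtl1 at 0.0071. For L3mbtl1 the difference passed without CS replicate 2, at -0.35 (adjusted p = 0.0491).

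The longest transcripts of Zfyve28 and L3mbtl1 hold 56.7% and 55.2% G and C, those of the other 3 genes 49.8% to 50.9%. With each library corrected for transcript GC content and length, Zfyve28 was at -0.64 (adjusted p = 0.0042) and L3mbtl1 at -0.53 (adjusted p = 0.00499) from CS to SD, and at -0.42 (adjusted p = 0.0445) and -0.43 (adjusted p = 0.0262) from CS to RS, so that they passed. With the listed share as a covariate, chosen after seeing the data, Zfyve28 was at -0.59 (adjusted p = 0.00694) from CS to SD, while L3mbtl1 did not pass. Neither gene passed from CS to SD among the libraries with at least 97% on listed genes. The correction for GC and length also cut the DEGs from CS to SD from 5826 to 2708.

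**Figure D1:**
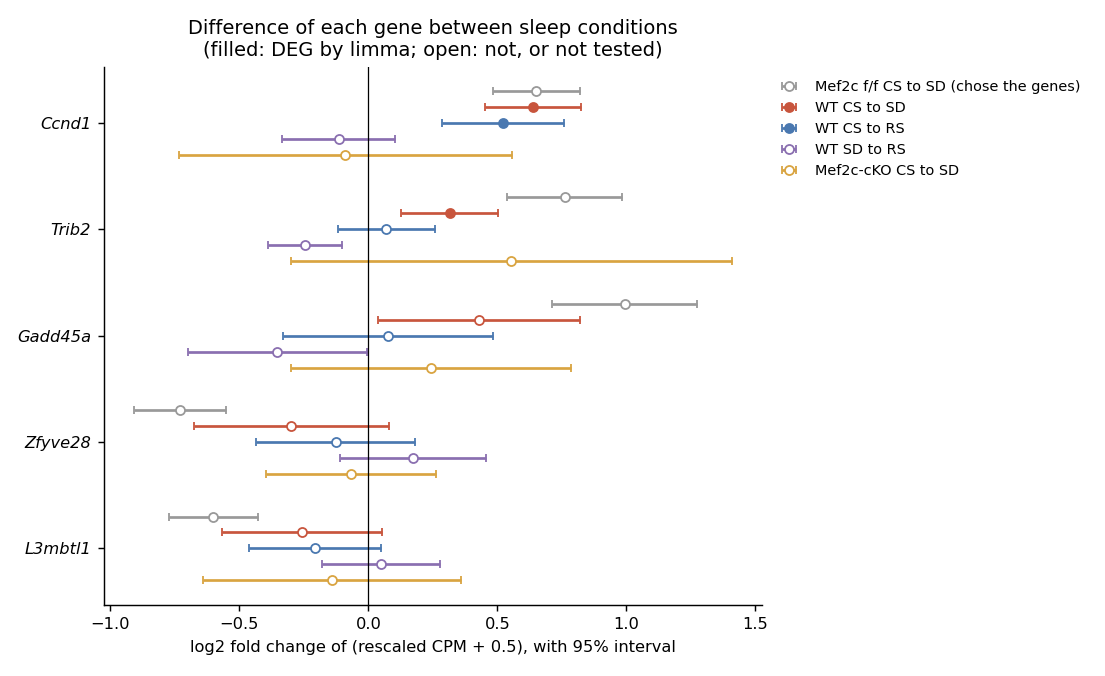
Log2 fold change of (rescaled CPM + 0.5) with its 95% interval (horizontal axis) for each gene (vertical axis) in 5 comparisons, coloured by comparison; filled points are DEGs by limma, and the grey points are the comparison that chose the genes. In WT, Ccnd1 is filled for SD and for RS against CS and Trib2 for SD, and every interval of the Mef2c-cKO comparison crosses 0.

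In Mef2c-cKO mice none of the 5 genes passed from CS to SD, where 0.0234% of 12810 genes were DEGs by limma and 391 had an unadjusted p of at most 0.05. None of the 5 was below 0.05 unadjusted by limma, and none was called by edgeR or DESeq2. The 2 groups overlapped for each of the 5, and did not for 9.05% of genes. Ccnd1 was at 30.1, 34.0 and 65.6 rescaled CPM in CS and at 42.6, 35.8 and 36.6 in SD, a log2 difference of -0.09 ± 0.27 (SE) with a 95% interval of -0.74 to 0.56. CS replicate 8 held the highest Ccnd1 level of the 33 libraries, and without it the difference was 0.25. Trib2 was at 42.9, 35.5 and 31.5 in CS and at 41.8, 101 and 36.3 in SD, a difference of 0.55 ± 0.36 with an interval of -0.30 to 1.41, which was 0.10 without SD replicate 6. These 2 libraries decide the values, and the adjusted p was 0.998 for all 5 genes.

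Gadd45a was at 3.47, 4.65 and 6.74 rescaled CPM in the Mef2c-cKO CS mice and at 6.35, 6.02 and 4.98 in the SD mice, a log2 difference of 0.24 ± 0.23 (SE) with a 95% interval of -0.30 to 0.78. Zfyve28 was at 88.2, 102 and 75.8 in CS and at 71.2, 91.7 and 90.3 in SD, a difference of -0.07 ± 0.14 with an interval of -0.40 to 0.26. L3mbtl1 was at 9.87, 11.4 and 7.51 in CS and at 7.85, 7.06 and 11.2 in SD, a difference of -0.14 ± 0.21 with an interval of -0.64 to 0.36.

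CS replicate 8 of the Mef2c-cKO mice stood apart in markers of other cells. Its 7 measured microglia and macrophage markers summed to 477 rescaled CPM against 179 and 209 in the other CS mice, its astrocyte markers to 5946 against 3984 and 4488, and its oligodendrocyte precursor markers to 293 against 162 and 175, while its red blood cell markers were at 10.7 against 63.0 and 108. This library was also the highest of the 33 for Gadd45a, at 6.74. The choroid plexus markers summed to 323 in CS replicate 5 against 8.23 and 6.77 in the others. The part of these cells in the values of the 5 genes was not tested.

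Whether the WT response differed from that of Mef2c-cKO mice was tested directly, as a difference of differences within each genotype, a test added after the data were seen. For Ccnd1 the CS to SD change was larger in WT by 0.73 on the log2 scale, with a 95% interval of 0.23 to 1.22 (limma adjusted p = 0.0919), in a test that calls 0.567% of 13415 genes. Without Mef2c-cKO CS replicate 8 the difference was 0.38 (adjusted p = 0.193). For the other 4 genes it was -0.24 for Trib2, 0.19 for Gadd45a, -0.23 for Zfyve28 and -0.11 for L3mbtl1, with adjusted p of 0.572 to 0.778. None of the 5 responses was shown to differ between these genotypes.

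Set side by side across all 7 groups, with no test and with any other difference between the lines left in, the groups fell into an order for each gene. Mean Ccnd1 was lowest in WT CS and Mef2c f/f CS, at 22.4 and 23.6 rescaled CPM with overlapping ranges, and then stepped to WT RS at 32.7, WT SD at 35.1, Mef2c f/f SD at 37.3, Mef2c-cKO SD at 38.3 and Mef2c-cKO CS at 43.2. The step from Mef2c f/f CS to WT RS was the only place where neighbours did not overlap. Mef2c-cKO mice in CS, at 30.1 or more, thus had Ccnd1 above every Mef2c f/f and WT mouse in CS, the highest of which was at 24.4. The share of all genes that lie apart in these ways was not computed. The Mef2c f/f values are also among those that chose Ccnd1.

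Mean L3mbtl1 was lowest in Mef2c-cKO SD and CS, at 8.70 and 9.60 rescaled CPM, followed by WT SD, RS and CS at 11.7, 11.99 and 14.1, Mef2c f/f SD at 14.9 and Mef2c f/f CS at 22.8. The 4 Mef2c f/f CS mice, at 22.3 or more, were above every other library, the next being a WT CS mouse at 17.2. No other neighbours in that order were apart. The Mef2c f/f values are among those that chose L3mbtl1 and the genes that follow, so their place in each order is only described. The share of all genes with a group above every other library was not computed. Zfyve28 followed a like order, from 84.4 in Mef2c-cKO SD, 88.5 in Mef2c-cKO CS and 90.6 in Mef2c f/f SD through 106, 117 and 131 in WT SD, RS and CS to 151 in Mef2c f/f CS, with overlap between all neighbours. Trib2 went from 30.3 in Mef2c f/f CS through 36.6 in Mef2c-cKO CS and 37.0, 38.7 and 46.0 in WT CS, RS and SD to 51.7 in Mef2c f/f SD and 59.7 in Mef2c-cKO SD, and Gadd45a from 2.95 in Mef2c f/f CS through 3.24, 3.42 and 4.48 in WT CS, RS and SD to 4.95 in Mef2c-cKO CS, 5.78 in Mef2c-cKO SD and 6.34 in Mef2c f/f SD. All neighbours overlapped for these 2 genes as well.

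Per kilobase of the longest annotated transcript, Zfyve28 was the most abundant of the 5 in WT CS, at 32.8 rescaled CPM per kilobase, followed by Trib2 at 8.82, Ccnd1 at 5.98, L3mbtl1 at 3.75 and Gadd45a at 2.65. In Mef2c f/f CS the values were 37.9, 7.22, 6.30, 6.06 and 2.41 in the same order.

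The calls of the list genes that follow were less steady than that of Ccnd1: from CS to SD, 35 of 39 such genes lost the call under at least 1 of 24 alternatives. L3mbtl2 and L3mbtl3, counted in the 39, had no call to lose. Among the D-type cyclins, the family of Ccnd1, all 3 members rose in WT from CS to SD, Ccnd2 near the threshold. Ccnd3 was at 3.60 to 9.22 rescaled CPM in CS and 10.55 to 16.1 in SD, without overlap, a log2 fold change of 0.97 ± 0.18 (SE, limma adjusted p = 0.0015), and it was also higher in RS at 0.70 ± 0.19 (adjusted p = 0.0362). Ccnd2 was at 20.9 to 40.5 in CS and 35.6 to 48.1 in SD, 0.37 ± 0.14 (adjusted p = 0.0445), and at 0.01 ± 0.17 in RS. Its call from CS to SD was lost under 12 of 24 alternatives, with values of 0.20 to 0.83, among them leaving out CS replicate 5 (0.24) or 6 or SD replicate 1, 2, 3, 4, 8 or 9. Of 23 tested genes of G1 to S control, 6 rose and 4 fell from CS to SD, where 24.6% of all genes rose and 20.5% fell. Their median on the log2 scale was 0.12 against 0.04 for all genes. Besides the cyclins, the partner kinase gene Cdk4 rose by 0.32 and Cdkn1a, which encodes the CDK inhibitor p21, by 0.95. The other partner kinase gene, Cdk6, fell, as did Ccne2, and no alternative was run for either by itself. Rb1, the retinoblastoma gene itself, was at -0.51 and the E2F partner Tfdp2 at -0.43. From CS to RS 3 rose and 2 fell of 22, where 9.28% and 8.22% of all genes did. In Mef2c-cKO mice none of 23 passed, and 0.0234% of all genes did.

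Trib1, the other Tribbles gene that could be tested, rose in WT. It was at 4.77 to 8.06 rescaled CPM in CS and 8.84 to 15.2 in SD, a log2 fold change of 0.64 ± 0.13 (SE, limma adjusted p = 0.00264), and at 0.29 ± 0.13 in RS (adjusted p = 0.0968). Trib3 was at 0.15 to 0.957 rescaled CPM in WT and was not tested. Of 18 tested genes of the Tribbles list, both Tribbles genes included, 9 rose and 3 fell, with a median of 0.22. Without Trib2 it was 8 and 3 of 17, with a median of 0.13. Over all genes 24.6% rose and 20.5% fell, with a median of 0.04. Cebpa and Cebpd, genes of the C/EBP factors that Tribbles proteins bind, rose by 0.84 and 1.21, Atf4, a stress-response transcription factor gene, rose by 0.92, and Rfwd2, which encodes COP1, was at -0.59 (0.05 with the GC and length correction). Among libraries with at least 97% on listed genes, 0 of the list rose and 3 fell.

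The Gadd45 paralogs rose in WT where Gadd45a itself did not pass. Gadd45b was at 0.883 to 7.86 rescaled CPM in CS and 4.80 to 10.8 in SD, a log2 fold change of 1.33 ± 0.33 (SE, limma adjusted p = 0.00732). Gadd45g was at 1.18 to 3.81 in CS and 2.84 to 6.65 in SD, 1.19 ± 0.22 (adjusted p = 0.00146), and 0.98 ± 0.22 in RS (adjusted p = 0.0329). In Mef2c f/f mice, where Gadd45a was at 0.99, Gadd45b was at 0.40 (adjusted p = 0.314) and Gadd45g at 0.06 (adjusted p = 0.867), and the difference between paralogs was not tested. Gadd45a was chosen for its change in these mice and its paralogs were not, so its larger value there follows from the choice. Of 24 tested genes of the p53 stress list 9 rose and 4 fell in WT from CS to SD, with a median of 0.16. Over all genes 24.6% rose and 20.5% fell, with a median of 0.04. Over 24 alternatives the list held 1 to 14 genes higher and 0 to 5 lower, Gadd45b ranged from 0.49 (adjusted p up to 0.255) to 1.61 and Gadd45g from 0.51 (adjusted p up to 0.0826) to 1.40, and the Sesn2 call was lost under 12. The largest rise was in Ddit4, a stress-induced inhibitor of mTORC1, at 1.65 ± 0.25, and Sesn2, Bbc3 and Trp53, the p53 gene, rose by 0.62, 1.08 and 0.38, while Ccng1, a p53 target, was at -0.46 and the demethylase gene Tet2 at -0.50.

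Of 32 tested genes of EGF receptor signalling and FYVE-domain endosomal proteins, 6 rose and 9 fell from CS to SD in WT, with a median of -0.13. Over all genes 24.6% rose and 20.5% fell, with a median of 0.04. Receptor and ligand genes went both ways: Erbb4 was at 931 to 1843 rescaled CPM in CS and 508 to 745 in SD, a fall of -0.78 ± 0.15 (SE, limma adjusted p = 0.00178), its ligand gene Nrg1 was at -0.96 and Egfr, the receptor that Zfyve28 acts on, at -0.36 (adjusted p = 0.0399; 0.06 with the GC and length correction), while Erbb2 rose by 0.66 and Hbegf, another ligand gene, by 0.35. Hgs, the endosomal sorting protein that binds ubiquitinated receptors, rose by 0.56. Of the 7 other Zfyve genes tested, Zfyve21 and Zfyve27 rose by 0.79 and 0.37 (the second call was lost under 13 of 24 alternatives, with values of 0.14 to 0.64), Zfyve9 and Zfyve16 fell, at -0.38 and -0.40 (the second was 0.09 with the GC and length correction), and Zfyve1, Zfyve19 and Zfyve26 were at 0.20, 0.15 and 0.12 and did not pass.

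Of 18 tested genes of MBT-domain readers and H4K20 methylation, 7 fell and 1 rose in WT from CS to SD, with a median of -0.19. Over all genes 20.5% fell and 24.6% rose, with a median of 0.04. The falling ones included L3mbtl4 at -0.53 ± 0.18 (SE, limma adjusted p = 0.0236), Mbtd1 at -0.60, Phf20l1 at -0.68, Scmh1 at -0.54, Scml2 at -0.53 and Sfmbt1 at -0.47, all readers of histone methylation or Polycomb-related proteins. Phf8 was the remaining falling gene, and no alternative was run for it by itself. The methyltransferase gene Suv420h2 rose by 0.58. L3mbtl2 and L3mbtl3 were at 0.26 and -0.13 and did not pass, the second being at 0.14 on CPM as deposited. With the correction for GC content and length, 2 genes of the MBT list fell and 1 rose. Of the G1 to S genes 6 rose and 0 fell, and of the EGF receptor list 2 and 2, so most falls in these lists were lost with it. Over all genes it left 1709 higher and 999 lower of 12442, against 3183 and 2643 of 12913 without it.

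**Figure D2:**
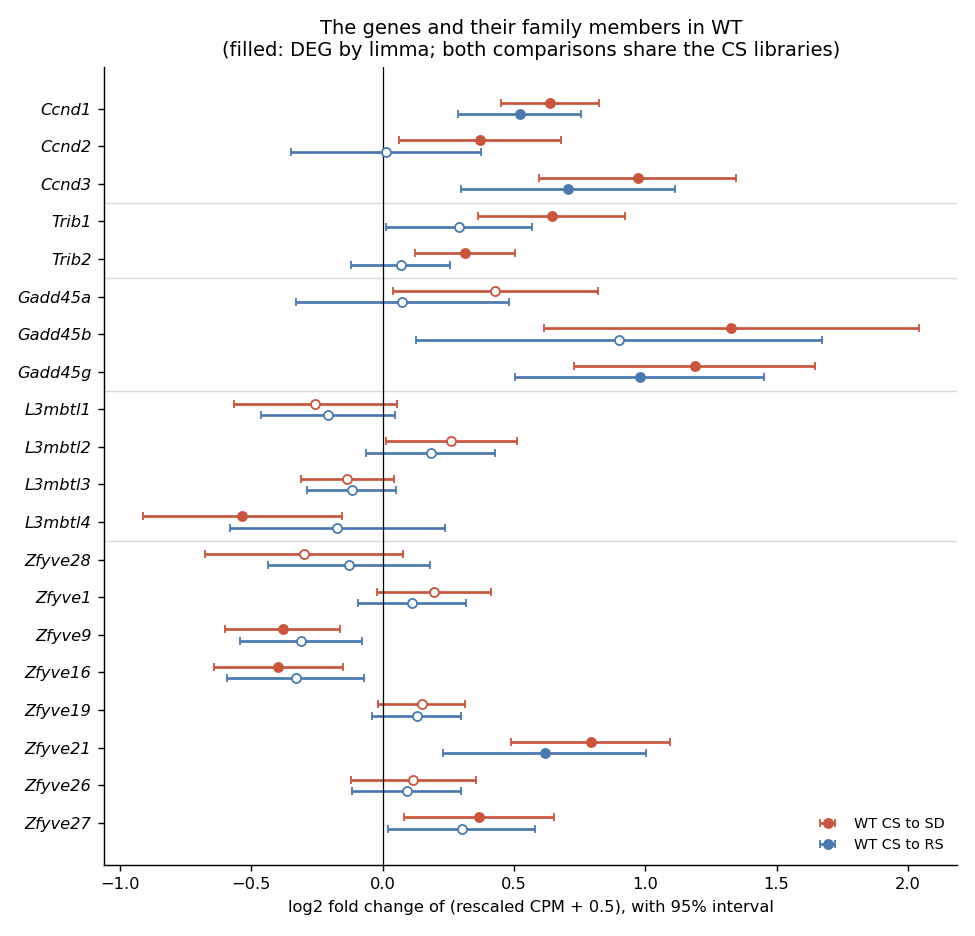
Log2 fold change of (rescaled CPM + 0.5) with its 95% interval (horizontal axis) in WT for the 5 genes and their measured family members (vertical axis, families divided by lines), red for CS to SD and blue for CS to RS; filled points are DEGs. The 3 cyclins, both Tribbles genes and Gadd45b and Gadd45g are filled to the right from CS to SD, while Gadd45a, Zfyve28 and L3mbtl1 are open.

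Over the 20 WT libraries and the 12155 genes at 1 CPM or more in all of them, the genes most like each of the 5 were found by Pearson's r of their log2 levels, given as a description, since the libraries share sleep conditions and the shift in listed share. For Ccnd1 these included Wfdc1 and Serpinh1, the collagen chaperone gene, at r of 0.944 and 0.933. With each group's mean removed they were at 0.820 and 0.891, and over the 13 Mef2c f/f and Mef2c-cKO libraries at 0.334 and 0.743. Zfyve28 was closest to Usp28, Fto and Ralgps1 at 0.957, 0.955 and 0.942, and over the 13 other libraries these were at 0.851, 0.736 and 0.873.

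Trib2 was closest to Mycn, Timmdc1 and Pusl1 at 0.881, 0.869 and 0.867, but over the 13 other libraries they were at 0.0837, 0.677 and -0.185. Gadd45a was closest to Sstr3, Kazald1 and Sat1 at 0.867, 0.861 and 0.860, and at 0.221, 0.143 and 0.482 in the others. L3mbtl1 was closest to Apba2, Arhgap44 and Cacna1a, a calcium channel gene, at 0.829, 0.827 and 0.818, and at 0.865, 0.274 and 0.900 in the others. Among the 5 themselves, Trib2 and Gadd45a had the highest value in WT, at 0.714, and were at 0.574 in the other libraries. Zfyve28 and L3mbtl1 went together at 0.699 in WT and 0.877 in the other libraries, and Ccnd1 and Gadd45a at 0.603 and 0.876, the value for the other libraries in each case including the Mef2c f/f mice that chose the genes.

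**Figure D3:**
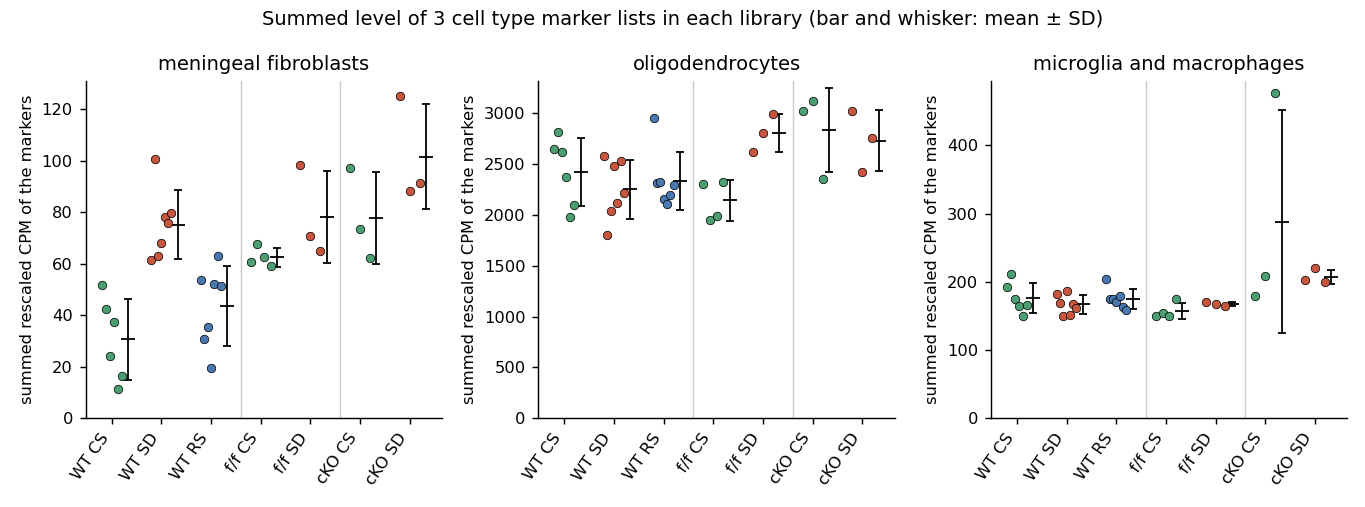
Summed rescaled CPM of the marker genes of meningeal fibroblasts, oligodendrocytes and microglia (vertical axes, starting at 0) in each of 33 libraries, by genotype and sleep condition along the horizontal axis; points are libraries and bars with whiskers are means ± SD. Meningeal markers are lower in WT CS than in WT SD, oligodendrocyte markers are lower in Mef2c f/f CS than SD, and 1 Mef2c-cKO CS library stands above the rest in microglial markers at 477.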

How the data were processed

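The authors filtered stranded RNA-seq reads with FASTQC and Trimmomatic. STAR placed them on mm10 and HTSeq counted those that mapped to 1 place. The authors deposited these counts as CPM, scaled to a common library total, of 21565 genes in 33 libraries. Whole reads were recovered from the CPM steps, with 100% of 711645 values within 0.01 of a whole number. Each library was rescaled by its median-of-ratios factor (11570 genes), 0.5 was added and log2 taken, so that fold changes of low genes are understated. A gene was kept where every replicate of 1 or both groups reached 1 CPM, and was fitted with limma 3.58.1 (lmFit, eBayes with a trend) in R 4.3.3, within 1 genotype, on the compared groups only. P-values were adjusted by Benjamini-Hochberg over all genes tested, and DEGs passed 0.05 on that scale with a log2 change of 0.3 or more either way. The 2 added alternatives on listed share and the WT against Mef2c-cKO test were chosen after seeing the data.

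Groups came from the GEO labels. The 5 genes and all gene lists were chosen with earlier results of these data known. Text names the 5 genes, Mef2c, family members of the 5, list genes that passed and the 3 genes most like each, of which 1 is not reported here. Replicates were separate mice, and a mouse has 1 library. Alternatives were another pseudocount, CPM as deposited, no filter, edgeR 4.0.16 and DESeq2 1.42.0 on recovered reads, a replicate block, all groups in 1 fit, a GC and length correction (GENCODE M21 longest transcripts) and each library left out. The fits were tested on simulated data.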

Additional observations from a re-analysis of the deposited data

Results flagged for a closer look

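Among 20 groups of 4 or more mice and 5 genes, 2 held a mouse that lay far from the others by Dixon's test, where chance alone flags about 1 in 20. That rate does not hold for the Mef2c f/f CS groups, since their values chose the genes, and 1 of the 2 flags is among them. WT SD replicate 2 had Ccnd1 at 43.1 rescaled CPM, above the other 6 SD mice at 30.9 to 35.7, and was also highest for Trib2, Gadd45a and the meningeal fibroblast markers of that group. Without it the Ccnd1 log2 fold change from CS to SD was 0.59. Mef2c f/f CS replicate 1 had Zfyve28 at 133.6 rescaled CPM, under the other 3 CS mice at 156 to 158. The larger values of Ccnd1 in Mef2c-cKO CS replicate 8 and of Trib2 in Mef2c-cKO SD replicate 6 are in groups of 3, which were not tested in this way.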

How the results depend on the processing

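The Ccnd1 rise from CS to SD in WT passed under each alternative run, at 0.59 to 0.67 when 1 mouse was left out. Trib2 was 0.28 to 0.36 with 1 mouse left out and did not pass among libraries with at least 97% on listed genes (0.14) or with listed share as a covariate (0.20). Gadd45a was 0.34 to 0.54 with 1 mouse left out, 0.66 on CPM as deposited and -0.11 among the libraries of at least 97%. L3mbtl1 was -0.35 to -0.19 with 1 mouse left out, 0.0071 on CPM as deposited and -0.53 with the GC and length correction. Zfyve28 was -0.64 with that correction, -0.59 with the covariate, -0.02 on CPM as deposited and -0.41 to -0.22 with 1 mouse left out. The 5826 DEGs became 2708 with the correction, 1810 among the libraries of at least 97% and 3449 with the covariate. CPM as deposited moved the median gene from 0.04 to 0.30 and split 6907 DEGs into 6106 higher and 801 lower, against 3183 and 2643. The cause of these changes was not tested.

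From CS to RS, 2232 DEGs became 385 with no filter, 3420 with DESeq2, 4018 with all groups in 1 fit, 512 with the GC and length correction and 0 to 3740 with 1 mouse left out. CPM as deposited split 2665 DEGs into 2350 higher and 315 lower. Ccnd1 was 0.46 to 0.56 with 1 mouse left out. Zfyve28 was 0.062 on CPM as deposited, -0.42 with the correction and -0.52 among the libraries of at least 97%, and L3mbtl1 was -0.43 with the correction. Gadd45a was -0.0199 with the correction, -0.27 among those libraries, -2.602e-05 with the covariate and -0.0103 to 0.19 with 1 mouse left out, and Trib2 was -0.0868 among those libraries.

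From SD to RS, 3 DEGs became 1 on CPM as deposited, 0 with no filter, 54 with DESeq2, 7 with the correction, 0 among the libraries of at least 97% and 0 to 9 with 1 mouse left out. L3mbtl1 was -0.0329 on CPM as deposited and -0.0151 to 0.0934 with 1 mouse left out, and Ccnd1 was 0.0154 among those libraries. In Mef2c-cKO mice 3 DEGs became 6 with no filter, 25 with DESeq2, 9 with all groups in 1 fit and 1 to 3 with 1 mouse left out, where Ccnd1 was -0.30 to 0.25 and Zfyve28 -0.17 to 0.0497. In Mef2c f/f mice 5 DEGs became 13 with a pseudocount of 1, 0 with no filter, 9 with edgeR, 466 with DESeq2, 124 with the correction and 0 to 590 with 1 mouse left out. With 1 Mef2c-cKO mouse left out, the WT minus Mef2c-cKO difference was -0.0393 to 0.39 for Gadd45a, -0.24 to 0.0708 for L3mbtl1, -0.52 to 0.21 for Trib2, 0.38 to 0.94 for Ccnd1 and -0.35 to -0.12 for Zfyve28.

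Neither the labels nor the data establish that replicate numbers pair the mice. Same-numbered WT mice correlated at -0.329 to 0.554 between CS and SD, at -0.726 to 0.333 between SD and RS and at 0.068 to 0.666, all above 0, between CS and RS, and not every mouse correlated best with its own number. A replicate block left 287 DEGs from CS to SD with Trib2 at 0.35 (adjusted p = 0.0675), 4279 from CS to RS with Ccnd2 at -0.0298, 0 from SD to RS, 13 in Mef2c f/f mice and 1 in Mef2c-cKO mice, where Ccnd1 was at 0.30 and Trib2 at -0.00073.

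Among the 39 other list genes, from CS to SD L3mbtl3 was 0.14 on CPM as deposited, and with the correction L3mbtl3 was 0.0236, Rfwd2 0.0524, Egfr 0.0564 and Zfyve16 0.0854, while Egfr was 0.0017 among the libraries of at least 97%. From CS to RS L3mbtl3 and L3mbtl4 were 0.0698 and 0.0090 on CPM as deposited and 0.0219 and 0.0379 with the correction, Rfwd2 was 0.0333 with it, and Ccnd2 was -0.0141 with DESeq2 and -0.11 to 0.11 with 1 mouse left out.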
